A study of Mus musculus with 18 samples.

Results

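Malat1, Neat1, Meg3, Miat and Snhg11 are long noncoding RNAs, long transcripts that are not made into protein. They were followed by RNA sequencing in neurons cultured from the dorsal root ganglia of mice, which relay touch and pain to the spinal cord. The 5 were picked by symbol from the 17198 genes of the deposited table, for their abundance and with earlier results of these data known, so their overall level is a description and not a finding. All 5 were measured in every culture. RNA was labelled as total RNA, without a nuclear fraction, so where in the cell each transcript lay was not measured.

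The study compared cultures from wild type mice (WT) with cultures from mice heterozygous for the tm1a allele of Dynlrb1 (Dynlrb1 tm1a/+, HET), which encodes a light chain of the dynein motor. Cultures of both genotypes were collected after 12, 24 and 48 h, with 3 biological replicates for each combination of genotype and time (6 groups, 18 samples). The labels give no treatment, no age, and no Cre or cell type restriction of the allele. The replicates were called biological repeats, and whether genotypes shared a litter is not stated in the sources used here.

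Malat1 and Neat1 are neighbouring genes whose RNAs stay in the nucleus. Malat1 collects in nuclear speckles, where splicing factors are stored, while the long form of Neat1 is the scaffold on which paraspeckles are built. Meg3 is made from the maternal copy of an imprinted region, Miat binds splicing factors in neurons, and Snhg11 is a host transcript whose introns carry small nucleolar RNAs.

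The members sit on 4 chromosomes of the mm10 (GRCm38.p6) assembly, with positions from RefSeq. Malat1 (ENSMUSG00000092341) lies on the minus strand at chr19:5795690-5802672, and Neat1 (ENSMUSG00000092274) on the same strand at chr19:5824708-5845480, 22035 bases away. Meg3 (ENSMUSG00000021268) lies on the plus strand at chr12:109540996-109571729. Miat (ENSMUSG00000097767) lies on the minus strand at chr5:112213228-112228948, and Snhg11 (ENSMUSG00000044349) on the plus strand at chr2:158375713-158386474. GENCODE lists 1 to 2 exons per transcript for Malat1 but 2 to 10 for Meg3. Each of Malat1, Meg3 and Miat is overlapped by 1 GENCODE gene on the opposite strand (Gm37376, Gm26906 and Gm26953), and none of these is in the table. Whether reads were counted by strand is not stated in the sources used here, so reads of such a pair could not be told apart.

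The promoters show how the members' genes begin, each from 250 bases before to 50 bases after the RefSeq start and read in the direction of transcription. The 4 with an entry were Malat1, Meg3, Miat and Snhg11. Capitals mark matches, on either strand, to 5 short motifs. They were TATAA for the TATA box, CCAAT for the box bound by the factor NF-Y, GGGCGG for the GC box bound by Sp factors, CACGTG for the E-box, and TGACG for the core of the cyclic AMP response element. On the other strand TGACG appears as CGTCA, and a GC box there appears as CCGCCC.
Malat1, chr19:5802623-5802922, minus strand: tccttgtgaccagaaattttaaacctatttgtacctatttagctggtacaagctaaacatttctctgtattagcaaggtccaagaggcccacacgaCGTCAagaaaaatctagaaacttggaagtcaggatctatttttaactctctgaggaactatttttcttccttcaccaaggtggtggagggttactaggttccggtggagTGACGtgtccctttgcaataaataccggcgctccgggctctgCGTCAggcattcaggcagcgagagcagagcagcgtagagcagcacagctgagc
Meg3, chr12:109540746-109541045, plus strand: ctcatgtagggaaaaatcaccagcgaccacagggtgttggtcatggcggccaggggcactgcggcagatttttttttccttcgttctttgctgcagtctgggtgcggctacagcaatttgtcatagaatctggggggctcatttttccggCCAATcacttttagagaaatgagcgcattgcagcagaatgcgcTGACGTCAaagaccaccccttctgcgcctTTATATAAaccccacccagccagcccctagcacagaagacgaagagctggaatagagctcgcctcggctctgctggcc
Miat, chr5:112228899-112229198, minus strand: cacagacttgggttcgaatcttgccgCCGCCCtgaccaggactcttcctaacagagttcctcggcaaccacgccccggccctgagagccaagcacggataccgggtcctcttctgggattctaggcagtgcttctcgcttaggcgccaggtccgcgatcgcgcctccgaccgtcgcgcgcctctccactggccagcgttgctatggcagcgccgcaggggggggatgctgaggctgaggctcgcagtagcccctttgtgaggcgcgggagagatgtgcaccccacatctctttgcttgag
Snhg11, chr2:158375463-158375762, plus strand: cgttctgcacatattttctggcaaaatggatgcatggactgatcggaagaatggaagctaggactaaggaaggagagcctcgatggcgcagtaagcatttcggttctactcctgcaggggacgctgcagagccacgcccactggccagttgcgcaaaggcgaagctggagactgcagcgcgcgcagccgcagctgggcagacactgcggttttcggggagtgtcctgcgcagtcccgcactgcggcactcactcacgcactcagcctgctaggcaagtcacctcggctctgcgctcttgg
Malat1 held TGACG 3 times, 45 bases before the start on the printed strand and 154 and 3 bases before it on the other strand. Meg3 held TGACG on both strands at 57 and 54 bases before the start, where the copies overlap, with TATAA 25 bases and CCAAT 100 bases before it. TATAA was also read on the other strand of Meg3, 28 bases before the start and overlapping the first copy. Miat held GGGCGG once, 224 bases before the start on the other strand, and Snhg11 held none of the 5 motifs. Of 32851 mouse promoters of the same length, 20.8% held TGACG, 24.9% TATAA, 37.4% CCAAT, 35.7% GGGCGG and 7.15% CACGTG. These matches describe letters and not bound factors. The GC content was 47% for Malat1, 53.7% for Meg3, 60% for Snhg11 and 64.3% for Miat, against a median of 52.7%, and the CpG pairs numbered 10, 13, 21 and 25.

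Per length, the members differed widely in level. Averaged over the 18 cultures, Malat1 had 876 FPKM (fragments per kilobase of transcript, scaled to the library total), the 17th highest of 17198 genes, and Meg3 had 161 FPKM, the 325th. Snhg11 followed with 28.2, Neat1 with 17.3 and Miat with 16.3 FPKM, against a median of 5.63 over all genes and 0.451 over the 616 genes that GENCODE types as long noncoding and RefSeq does not type as protein coding or pseudogene. Malat1 and Meg3 were the first and second of those 616, Neat1 the 17th and Miat the 18th, while GENCODE types Snhg11 as protein coding and RefSeq as noncoding. Malat1 alone made up 0.349% to 1.08% of the normalized counts of a culture, with a median of 0.560%. The deposited FPKM of Neat1 was computed over 3177 bases, close to a GENCODE transcript of 3004 bases and far from the longest one of 20771. It therefore does not tell the short from the long form.

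**Figure D1:**
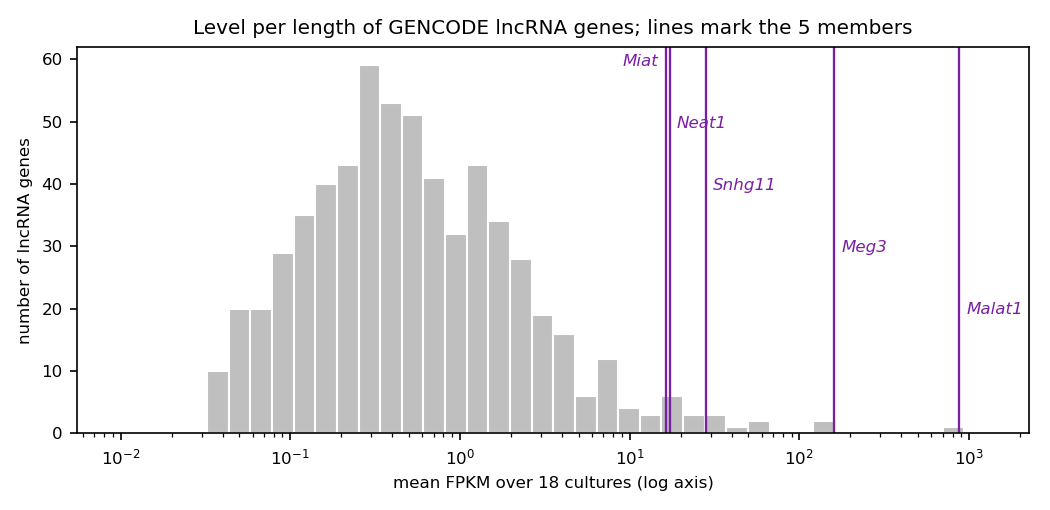
Number of GENCODE long noncoding RNA genes (vertical axis) by mean FPKM over the 18 cultures (horizontal log axis), with a line at each of the 5 members. Malat1 at 876 FPKM and Meg3 at 161 lie to the far right, while Miat at 16.3 and Neat1 at 17.3 lie close together.

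Malat1, the speckle RNA, was higher in WT cultures at 48 h than at 12 h. In WT the replicates had 215169, 167023 and 284722 normalized counts at 12 h, 341139, 236062 and 256514 at 24 h and 234496, 445915 and 447260 at 48 h. In HET they had 144839, 171137 and 216081 at 12 h, 186136, 208266 and 204958 at 24 h and 287760, 292524 and 230176 at 48 h. WT cultures at 48 h held both the highest values and 1 culture, replicate 1, that lay within the 12 h range, so the WT groups overlapped. HET cultures at 48 h all lay above those at 12 h and 24 h. In bulk cultures, fewer cells of a type and less RNA per cell cannot be told apart. From 12 to 48 h Malat1 rose 1.66-fold in WT (log2 0.73 ± 0.24 SE, limma adjusted p = 0.0177, n = 3 against 3). In HET the fitted difference was 0.62 ± 0.24 on the log2 scale (limma adjusted p = 0.0838), and the genotypes' changes differed by -0.11 ± 0.33 (limma adjusted p = 0.922). The WT call was lost when WT 12 h replicate 2 (limma adjusted p = 0.0956), WT 48 h replicate 2 (0.0932) or WT 48 h replicate 3 (0.0799) was left out, and when only the 2 groups compared were fitted (0.0579).

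Neat1, the paraspeckle scaffold, went the other way in WT. Its replicates there had 3405, 3129 and 3155 normalized counts at 12 h, 3249, 3230 and 1845 at 24 h and 1542, 1469 and 1704 at 48 h. In HET they had 1828, 1722 and 2826 at 12 h, 1753, 2318 and 1958 at 24 h and 1856, 1610 and 2351 at 48 h. The 3 WT cultures at 48 h lay below every WT culture at 12 or 24 h, and 1 of the 3 at 24 h, replicate 5, lay near them. HET cultures of the 3 times overlapped with one another. Neat1 fell to 0.486 of its 12 h level in WT at 48 h (log2 -1.04 ± 0.21 SE, limma adjusted p = 7.86e-04), and from 24 to 48 h it fell by 0.78 on the log2 scale (SE 0.21, limma adjusted p = 0.0130). The second of these was lost without WT 24 h replicate 1 (limma adjusted p = 0.0603), WT 24 h replicate 2 (0.0704) or WT 48 h replicate 2 (0.0536). In HET the change from 12 to 48 h was -0.11 ± 0.21 (limma adjusted p = 0.741). The difference between the 2 genotypes' changes was 0.93 ± 0.29 on the log2 scale, and it did not pass the threshold (limma adjusted p = 0.548), so the genotypes are not shown to differ in it. Of all genes, 8.92% had an unadjusted p under 0.05 for that difference and 0% an adjusted one, and Neat1 was the 1 member of 5 with an unadjusted p under 0.05.

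**Figure D2:**
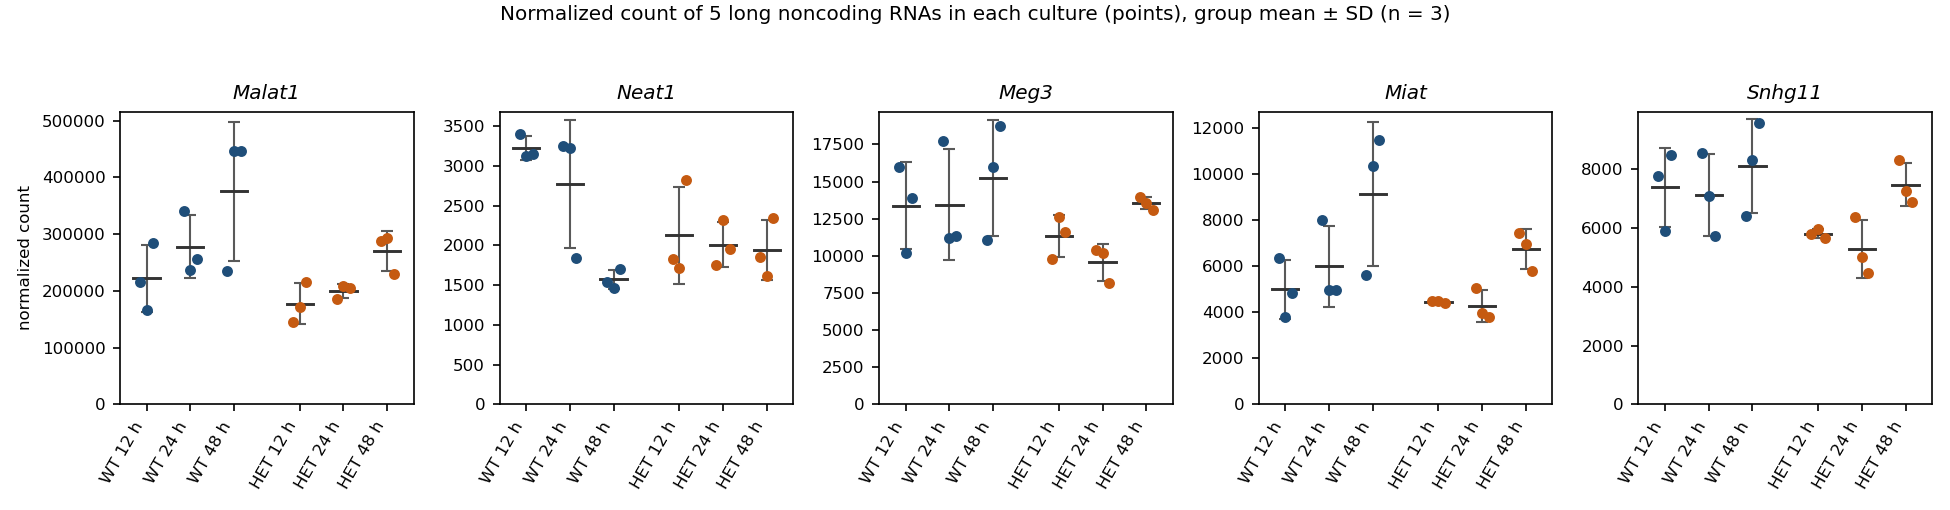
Normalized count (vertical axis, from 0) of each member for each genotype at each time (6 groups, horizontal axis), with 1 point per culture and the group mean ± SD (n = 3). Malat1 reaches 447260 in WT at 48 h, while Neat1 in WT falls from a mean of 3230 at 12 h to 1572 at 48 h.

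Meg3, the imprinted RNA, showed no change that passed the test. In WT it had 16009, 10221 and 13881 normalized counts at 12 h, 17764, 11225 and 11361 at 24 h and 11052, 15993 and 18757 at 48 h. In HET it had 9815, 12612 and 11616 at 12 h, 10373, 10192 and 8146 at 24 h and 13950, 13569 and 13117 at 48 h. HET cultures were closely grouped at 48 h, above those at 12 and 24 h, while WT cultures overlapped throughout. From 12 to 48 h the log2 difference was 0.18 ± 0.20 in WT (limma adjusted p = 0.480) and 0.26 ± 0.20 in HET (limma adjusted p = 0.386).

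Miat, which binds splicing factors, was higher in WT at 48 h. In WT it had 6355, 3807 and 4846 normalized counts at 12 h, 8008, 4982 and 4987 at 24 h and 5607, 10375 and 11500 at 48 h. In HET it had 4482, 4508 and 4407 at 12 h, 5072, 3950 and 3814 at 24 h and 7461, 6982 and 5794 at 48 h. As for Malat1, WT 48 h replicate 1 lay within the 12 h range, while HET cultures at 48 h lay above all earlier HET cultures. Miat rose 1.79-fold from 12 to 48 h in WT (log2 0.84 ± 0.24 SE, limma adjusted p = 0.00895). In HET the log2 difference was 0.59 ± 0.24 (limma adjusted p = 0.103), and the genotypes' changes differed by -0.25 ± 0.34 (limma adjusted p = 0.807). The WT call was lost without WT 12 h replicate 2 (limma adjusted p = 0.0523) or WT 48 h replicate 3 (0.0501).

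Snhg11, the small nucleolar RNA host, did not pass the test at any time. In WT it had 7764, 5891 and 8492 normalized counts at 12 h, 8540, 7085 and 5741 at 24 h and 6424, 8327 and 9578 at 48 h. In HET it had 5793, 5967 and 5671 at 12 h, 6367, 5001 and 4460 at 24 h and 8301, 7246 and 6884 at 48 h. WT groups overlapped, and HET cultures at 48 h again lay above the earlier ones. From 12 to 48 h the log2 difference was 0.13 ± 0.17 in WT (limma adjusted p = 0.546) and 0.36 ± 0.17 in HET (limma adjusted p = 0.157).

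Counted together, 3 of the 5 members were called from 12 to 48 h in WT, 2 higher and 1 lower, where 47.1% of all genes were called, 30% higher and 17.1% lower. With so many genes called, 3 of 5 is not a result about the members. Neat1 was also the member whose WT groups did not overlap, lower at 48 h than at 12 h (20.7% of genes) and than at 24 h (18.4%). From 24 to 48 h in WT 1 member was called, lower, against 27.7% of genes in all and 10.3% lower. From 12 to 24 h in WT 0 were called, against 3.62%, and 0 had an unadjusted p under 0.05, against 21.4%. In HET 0 members were called from 12 to 48 h, against 14.2% of genes, though 2 had an unadjusted p under 0.05, against 32%. From 24 to 48 h in HET 0 were called, against 2.49%, and 3 had an unadjusted p under 0.05, against 19.1%. From 12 to 24 h in HET 0 were called, against 18.9% of genes, and 0 had an unadjusted p under 0.05, against 33%. In HET, Malat1, Meg3, Miat and Snhg11 all lay higher at 48 h than at 12 h without overlap, against 21.6% of genes, and the same 4 lay above the 24 h groups, against 10.2%. These 4 varied together between cultures, so they are not separate observations. In the authors' deposited table, Malat1, Neat1 and Miat had adjusted p under the threshold for 48 against 12 h in WT (0.00200, 4.34e-06 and 5.87e-04), as did Malat1 in HET (0.0388). That table called 45.4% and 15.5% of genes in these 2 comparisons.

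Normalization moved the median of all genes, which was 0.11 from 12 to 48 h in WT and 0.10 in HET on the log2 scale. On a second set of deposited columns, adjusted but not labelled as normalized, these medians were 0.0069 and 0.0075. Relative to the median of all genes, Malat1 stood at 0.62, Miat at 0.73 and Neat1 at -1.15 in WT. The same columns gave 3760 genes lower and 4177 higher in WT, where the normalized counts gave 2946 lower and 5152 higher. For HET they gave 926 lower and 999 higher, against 622 and 1820. The 3 members called in WT were called in the same directions on both sets, with limma adjusted p of 0.0416 for Malat1, 0.0211 for Miat and 5.84e-04 for Neat1 on the second.

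Genotype was compared at each time. Dynlrb1 itself served as the check of the labels: every HET culture had fewer Dynlrb1 normalized counts than every WT culture of its time. HET means were 58.1%, 55.4% and 55.6% of WT at 12, 24 and 48 h. Dynlrb1 was called lower in HET at 24 h (limma adjusted p = 0.0390) but not at 12 h (0.0655) or 48 h (0.0501). Not being called at a given time therefore does not show that a gene was unchanged. At 12 h Neat1 alone of the members separated by genotype, with all HET cultures below all WT cultures, against 8% of genes (log2 -0.64 ± 0.21 SE, limma adjusted p = 0.577). At 12 h the summed level of the 4 measured RNA quality and library signs (Rmrp, Rpph1, Rn45s and Lars2) did not overlap either. It was 170757 to 198481 normalized counts in HET and 219263 to 343726 in WT. Most of that sum was Rn45s, a ribosomal RNA precursor. Of the 4, Rn45s and Lars2 had an unadjusted limma p under 0.05 at 12 h (log2 -0.75 and -0.82). Only these 2 of the 4 had a fitted HET level below WT, and Rmrp and Rpph1 did not. All 5 endothelial markers had a fitted HET level below WT at 12 h, with a median of -0.45, and 2 of them had an unadjusted p under 0.05. Also below WT were 8 of 9 glial, 5 of 6 fibroblast, 3 of 5 macrophage and 5 of 14 neuron markers. Of all 17198 genes, 9088 were below WT at 12 h. The part of RNA quality, of library preparation or of any of these cells in the difference of Neat1 was not tested. At 24 h Malat1 and Meg3 were the 2 members with all HET cultures below all WT cultures, against 2.79% of genes. Their log2 differences were -0.46 ± 0.24 and -0.47 ± 0.20 (limma adjusted p = 0.99995 for each). At 48 h every member overlapped. There Neat1 had a log2 difference of 0.29 ± 0.21 (limma adjusted p = 0.437), Malat1 -0.42 ± 0.24 (0.302), Miat -0.38 ± 0.24 (0.363), Meg3 -0.14 ± 0.20 (0.730) and Snhg11 -0.10 ± 0.17 (0.771). The members called at 12, 24 and 48 h numbered 0, 0 and 0, against 0.00581%, 0.00581% and 0% of genes. The authors' deposited table also called 0 members at each time, but 0.0233%, 0.0116% and 5.98% of genes. The 0% found here at 48 h therefore does not show that no gene differed. Members with an unadjusted limma p under 0.05 numbered 1, 2 and 0, against 8.41%, 1.15% and 22% of genes.

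Averaged over times, the fitted HET level was lower for all 5 members, and none passed the adjusted threshold. Malat1 stood at -0.40 ± 0.14 on the log2 scale (limma adjusted p = 0.310), or 0.759 of the WT level. Snhg11 stood at -0.29 ± 0.10 (adjusted p = 0.310), Miat at -0.33 ± 0.14 (adjusted p = 0.331), Meg3 at -0.27 ± 0.12 (adjusted p = 0.329) and Neat1 at -0.26 ± 0.12 (adjusted p = 0.365), all by limma. An unadjusted p under 0.05 was found for 5 of the 5, against 13.5% of all genes, and 0.0174% of genes passed the adjusted threshold. Of all genes, 56.1% had a fitted difference below 0. All but Neat1 were below 0 at each of the 3 times, against 14.7% of genes. Since Malat1, Meg3, Miat and Snhg11 varied together between cultures, these are not separate observations.

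**Figure D3:**
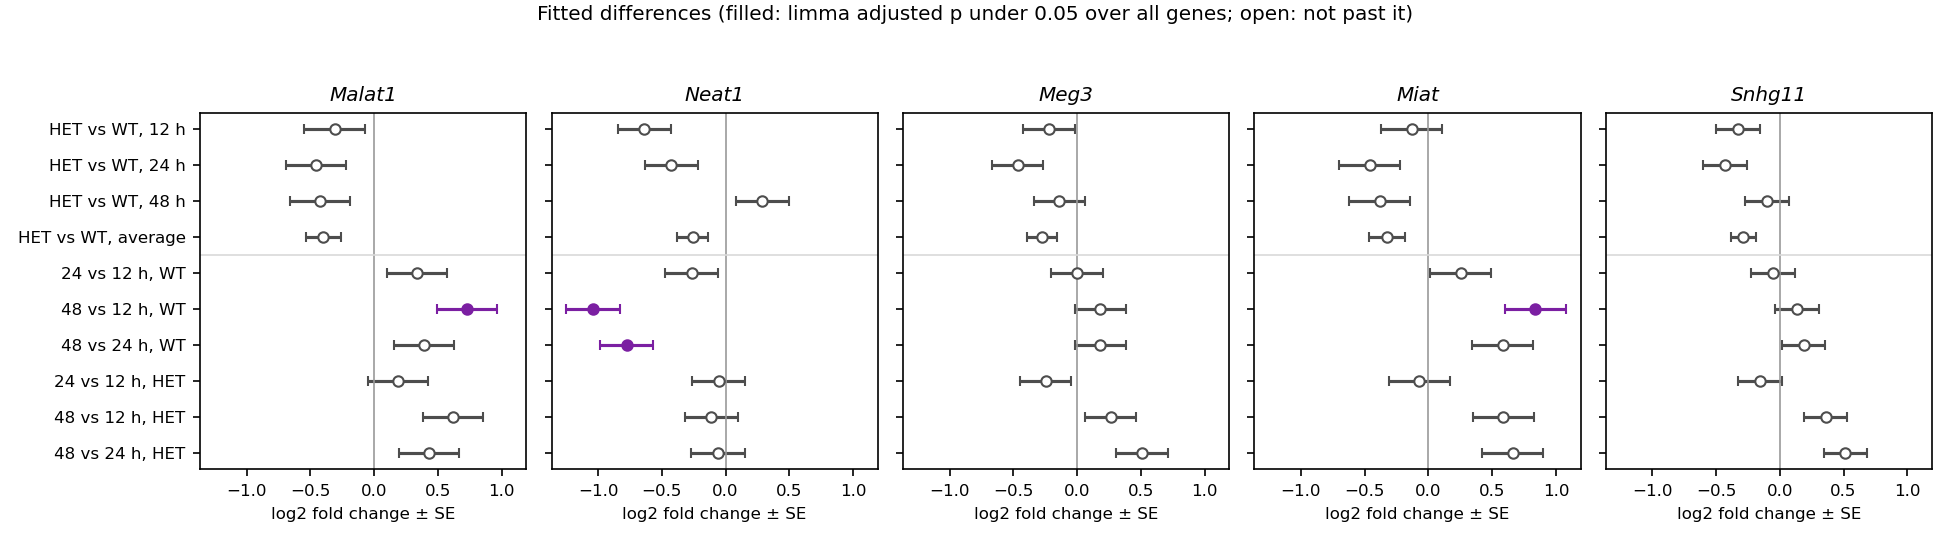
Log2 fold change ± SE (horizontal axis) of each member in each comparison (vertical axis), from the limma fit to all 18 cultures. Filled points are those with adjusted p under 0.05, which are Malat1, Neat1 and Miat for 48 against 12 h in WT and Neat1 for 48 against 24 h in WT.

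Cultures in which 1 of 4 members was high tended to be those in which the others were, but not in every case. In HET at 24 h, replicate 1 had the lowest Malat1 but the highest Meg3, Miat and Snhg11. After each group mean was subtracted, Meg3 and Miat had a Pearson r of 0.90 over 18 cultures, Miat and Snhg11 0.85, Meg3 and Snhg11 0.83 and Malat1 and Meg3 0.75. Malat1 had an r of 0.72 with Miat and 0.64 with Snhg11. Neat1 stood apart, with r between 0.09 and 0.25 against the others. These values describe cultures scaled to nearly the same total by the authors, from which 2 directions among samples had been removed, and carry no test. Across the 18 log2 values, the genes most like Malat1 were Amy1 (r = 0.94), Fam193b (0.94) and A330023F24Rik (0.94) of 12477 genes. Those most like Neat1 were Dock6 (0.90), Arap3 (0.87) and Fam43a (0.86). Snhg11 (0.90), Miat (0.86) and Clcn2 (0.80) were most like Meg3, and Meg3 (0.90), Miat (0.84) and Tmem145 (0.84) most like Snhg11. Firre (0.90), a nuclear long noncoding RNA, Mirg (0.90), a transcript of the Meg3 region, and A330023F24Rik (0.89) were most like Miat.

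**Figure D4:**
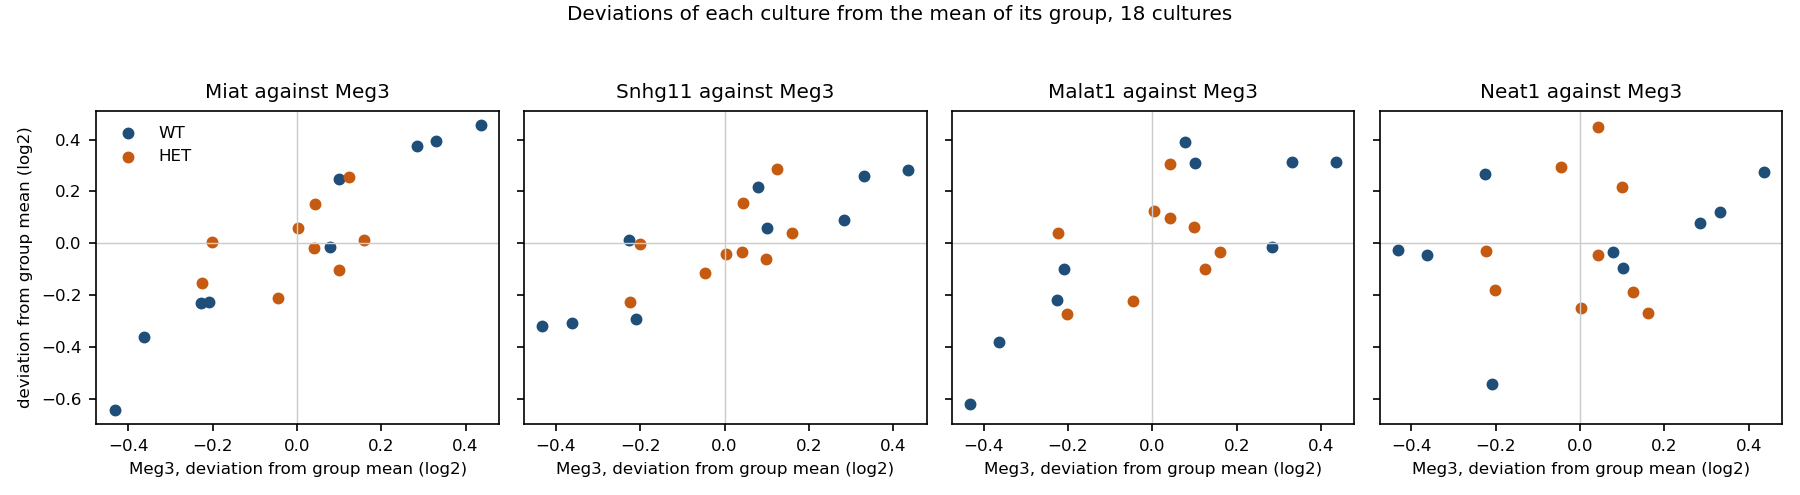
Deviation of each culture from the mean of its group in log2 units, for the other members (vertical axis) against Meg3 (horizontal axis), with 18 points per panel. Miat (r = 0.90) and Snhg11 (r = 0.83) follow the diagonal, and Neat1 (r = 0.25) is scattered.

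The proteins and RNAs that work beside the members were read from lists chosen with earlier results known. In the 14 paraspeckle proteins, which bind Neat1, 4 rose and 3 fell from 12 to 48 h in WT, near the 30% and 17.1% of all genes that did. Nono rose by 0.75 ± 0.09 on the log2 scale, Pspc1 by 0.58 and Tardbp by 0.52, while Rbm14 fell by 0.61, Hnrnpa1 by 0.53 and Ewsr1 by 0.33. In HET, where 10.6% of all genes rose, Pspc1 (0.42), Nono (0.39) and Tardbp (0.37) rose, Tardbp not on the second set of columns (limma adjusted p = 0.122). From 12 to 24 h in HET 5 of the 14 rose and 0 fell, against 2261 and 991 of 17198 genes. On the second set of columns 3 rose and 0 fell, against 1811 and 1359 of all genes. On the normalized counts Sfpq rose by 0.39 and Rbm14 by 0.45, Rbm14 not on the second set of columns (limma adjusted p = 0.0846). From 24 to 48 h in HET Sfpq fell by 0.41 and Rbm14 by 0.65. Of the 15 speckle proteins, 1 rose in WT, Pnn by 0.37, and 3 fell, Srrm2 by 0.77, Srrm1 by 0.65 and Srsf1 by 0.43, again against 30% and 17.1% of all genes. In HET 0 of the 15 were called, although 2 had an unadjusted p under 0.05. Among 3 splicing factors that bind Miat, Celf3 rose by 0.80 in WT and 0.54 in HET, and Sf1 fell by 0.68 in WT. Celf3 in HET was not called on the second set of columns (limma adjusted p = 0.0537).

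Within the imprinted region of Meg3, 5 of 7 listed genes were measured. Mirg, made from the same maternal copy, rose by 0.72 in WT and 0.76 in HET, and Begain, which lies beside the region, fell by 1.16 and 0.74. Mirg in HET was not called on the second set of columns (limma adjusted p = 0.0622). It went from 194 ± 42.4 normalized counts at 12 h to 321 ± 75.4 at 48 h in WT (SD, n = 3). Of the small nucleolar RNA hosts other than Snhg11, 12 of 19 were measured and 3 fell in WT, Snhg1 by 0.91, Snhg12 by 0.84 and Snhg5 by 0.67, while 0 rose, against 17.1% and 30% of all genes. In HET 0 were called, and 1 had an unadjusted p under 0.05. On the chromosome of Malat1 and Neat1, 3 of 8 neighbouring genes rose and 0 fell in both genotypes, against 30% of all genes that rose in WT and 10.6% in HET. In WT that is near the share of the table. Slc25a45 rose by 1.75 in WT and 1.08 in HET, Ehbp1l1 by 1.65 and 0.97, and Frmd8 by 0.44 and 0.39. On the second set of columns Frmd8 in HET was not called (limma adjusted p = 0.108). From 12 to 24 h in WT, Nono (0.36) and Ehbp1l1 (0.89) were the genes of these lists that rose.

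Among 16 other long noncoding RNAs measured of 22 listed, H19 (1.42), Sox2ot (1.06) and Firre (0.79) rose from 12 to 48 h in WT, and Pvt1 (-0.53), 2900097C17Rik (-0.49) and 1700020I14Rik (-0.26) fell. H19 and Sox2ot were not called on the second set of columns (limma adjusted p = 0.0629 and 0.0560). In HET Firre rose by 0.78 and 2900097C17Rik fell by 0.33. Over the 616 genes typed as long noncoding, 20.6% rose and 10.6% fell in WT, against 30% and 17.1% of all genes. Their median level was 28.2 normalized counts, against 636 over all genes, and the part of this low level in the shares called was not tested. In HET 8.77% rose and 1.79% fell, against 10.6% and 3.62%, or 54 and 11 genes, where the second set of columns gave 34 and 15. The median change of the 616 genes was 0.18 in WT and 0.22 in HET, against 0.11 and 0.10 over all genes. Across the 7 lists, 73 genes were measured. By genotype 0 of the 73 were called at any time or on average, and on average 11 had an unadjusted p under 0.05. In WT from 12 to 48 h 13 rose and 14 fell, and on the second set of columns 11 rose and 19 fell. In HET 9 rose and 2 fell, against 5 and 4 on the second set. From 24 to 48 h in WT 9 rose and 10 fell, where 27.7% of all genes were called. From 12 to 24 h in HET 9 rose and 2 fell, where 18.9% of all genes were called, against 7 and 5 on the second set.

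**Figure D5:**
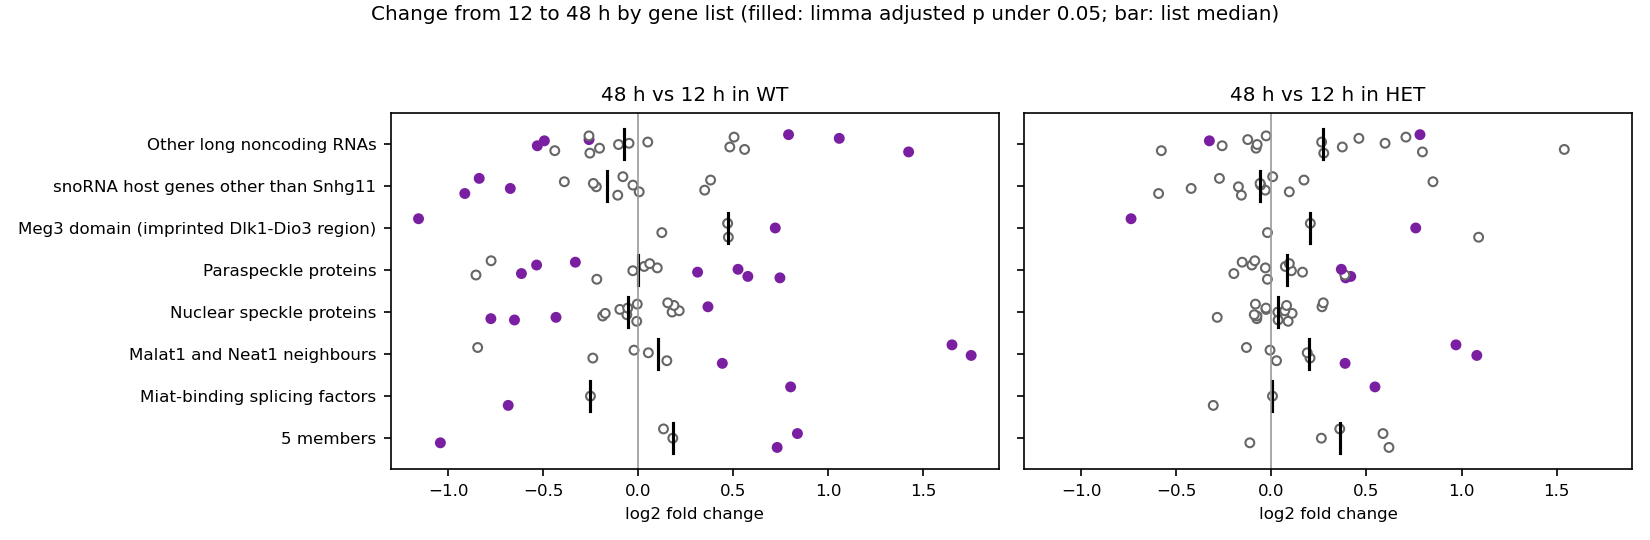
Log2 fold change from 12 to 48 h (horizontal axis) of each measured gene of each list (vertical axis), for WT and HET, with filled points for adjusted p under 0.05 and a bar at the list median. Slc25a45 at 1.75 and Ehbp1l1 at 1.65 in WT lead the neighbours of Malat1 and Neat1.

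Markers of the cells in the dish moved over the same times. All 14 sensory neuron markers were measured, and their summed level ran from 653401 to 905083 normalized counts over the cultures, with 3 markers higher and 7 lower from 12 to 48 h in WT. All 6 fibroblast markers were measured. Their sum was between 4878 and 11608 normalized counts in WT at 12 h and between 17195 and 27597 at 48 h, with 4 of the 6 higher. In HET the sum was between 5525 and 9083 at 12 h and between 12670 and 26305 at 48 h, with 3 higher. Of 9 glial markers 2 rose and 3 fell in WT and 0 rose and 2 fell in HET. Of 5 measured macrophage markers 1 rose and 1 fell in WT and 1 rose and 0 fell in HET. Among the 5 endothelial markers 0 rose and 2 fell in WT, Cdh5 by 1.43 and Pecam1 by 0.77, and 0 were called in HET. Their sum in WT was between 9548 and 11818 normalized counts at 12 h and between 5104 and 7133 at 48 h without overlap, as for Neat1. In HET the endothelial sum was between 5843 and 9752 at 12 h and between 5845 and 7672 at 48 h. The glial and neuron sums in WT also fell without overlap. The glial sum was between 20183 and 30212 at 12 h and between 15297 and 18823 at 48 h. The neuron sum was between 703159 and 855473 at 12 h and between 653401 and 696908 at 48 h. All these counts stand against 30% of genes that rose and 17.1% that fell in WT, and 10.6% and 3.62% in HET. Of the 14 genes listed as RNA quality and library signs 4 were measured, and no mitochondrial gene of the list was. From 12 to 48 h 0 of the 4 were called in WT or HET, with an unadjusted p under 0.05 for 0 of them. Between genotypes 0 of the 4 were called, with an unadjusted p under 0.05 for 2 at 12 h, 0 at 24 or 48 h and 1 on average over times. No marker stood at 0 in any culture, but nor did any other gene of the table, so this does not show which of these cells were present. The part of these cells in the changes of Malat1, Neat1 and Miat was not tested.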

How the data were processed

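Total RNA of 18 cultures of DRG neurons was sequenced, and 1 deposited table of 17198 genes was analysed. Per the submitters' processing notes, the tools were CASAVA 1.8.2 and edgeR and the build was mm10; the aligner, the counter, its use of strand and the gene filter are not given in the sources used here. The authors deposited normalized counts, a signal with no whole number and no 0 whose totals ran from 41509705 to 41509874 per sample, so sequencing depth is unknown and no interval or floor was computed. A second set of per-sample signal columns, without that label, had totals from 39465712 to 44213485 and served as an alternative. FPKM values were deposited by the authors and used for levels between genes. The authors' deposited log2 fold changes and adjusted p-values entered no test made here. The second set spanned 15 of 17 possible dimensions, so 2 directions among samples had been removed by a step not stated in the sources used here, which a fit of the group means does not account for. In the table, 24 per-sample columns that match no sample given here were not used.

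Values were taken as log2(normalized count + 1), which understates changes of low genes. A filter at a mean of 1 removed 0 genes. limma 3.58.1 in R 4.3.3 fitted 1 mean per group to all 18 samples (12 residual and 4.97 prior degrees of freedom), with a mean-variance trend, and p-values were adjusted by Benjamini-Hochberg over all genes within each of 11 comparisons at a threshold of 0.05. The design assumed a count test only if counts were found. The fit was tested on simulated data. Nothing says that replicates were separate animals beyond the term biological repeat, so p-values measure the spread between these samples. Members and gene lists were chosen with earlier results of these data known. All members are named. From each list, at most 3 called genes per direction are named for 48 against 12 h. For other comparisons, the called genes are named where 5 or fewer were called over the 7 lists together. For Sfpq and Rbm14, named by this rule, the earlier change in HET is given too. Genes most alike were taken among those with a mean of at least 100. Positions and promoters are from RefSeq (GRCm38.p6), and transcripts and types from GENCODE release 21 for mouse. Figures were drawn with matplotlib 3.10.9. Samples were grouped by their titles, and the alternatives are given in the closing section.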

Additional observations from a re-analysis of the deposited data

How the results depend on the processing

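Each comparison was refitted under 11 alternatives and without each of the 18 samples; 1 alternative, with the removed directions as covariates, was chosen after seeing the data. The fall of Neat1 in WT from 12 to 48 h kept its direction and its side of the threshold in all of these fits, with log2 changes from -1.24 to -0.99 and limma adjusted p up to 0.00536. Same-numbered cultures of the 2 genotypes correlated at -0.21 to 0.46 over 9 pairs, 7 of them over 0.1, and 14 of 18 samples correlated best with their own number, a hint from the data and not from the design, so the numbers were not taken as pairs. For comparisons of genotype, the replicate block joined same-numbered cultures of the same time. For comparisons of time, it joined same-numbered cultures of the same genotype, which these correlations did not examine. Replicate 5 was present only at 12 and 24 h and replicate 3 only at 48 h, so replicates 1 and 2 alone linked 48 h with 12 h. With this block, 1 member was called in WT from 12 to 48 h, and 1, Malat1, in HET (log2 0.82, limma adjusted p = 0.0354). The block also took Malat1 (0.65, limma adjusted p = 0.0637) and Miat (0.58, limma adjusted p = 0.0959) out of the calls in WT. It turned Meg3 (-0.016) and Snhg11 (-0.015) from 12 to 48 h in WT and Meg3 from 24 to 48 h (-0.015), none of them called. It called 2120 genes by genotype at 48 h, against 0, and 8 of the 73 listed genes, 3 higher and 5 lower, with no member among them. Quantile normalization turned Meg3 from 12 to 24 h in WT to 0.017. Over the 11 alternatives, the genotype difference of Malat1 at 24 h ran from -0.46 to 0 on the log2 scale. Averaged over times it ran from -0.40 to -0.25. The change of Malat1 from 24 to 48 h in HET ran from 0 to 0.63. None of these was called in any alternative.

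Leaving out 1 culture in turn, members called ranged from 1 to 3 from 12 to 48 h in WT, from 0 to 3 from 24 to 48 h in WT and from 0 to 1 from 12 to 48 h in HET. Without WT 48 h replicate 1, Malat1 (limma adjusted p = 0.0334) and Miat (0.0173) were called from 24 to 48 h in WT. Signs of uncalled values turned in these ranges: Miat by genotype at 12 h -0.31 to 0.056, Meg3 -0.36 to 0.026 and Snhg11 -0.26 to 0.027 at 48 h. From 12 to 24 h in WT the ranges were -0.40 to 0.0054 for Neat1, -0.22 to 0.14 for Meg3 and -0.21 to 0.092 for Snhg11, and from 12 to 48 h -0.021 to 0.29 for Snhg11. In HET they were -0.19 to 0.17 for Neat1 and -0.20 to 0.0035 for Miat from 12 to 24 h, and for Neat1 -0.26 to 0.11 from 12 to 48 h and -0.21 to 0.065 from 24 to 48 h. For the genotypes' difference in change they were -0.42 to 0.077 for Malat1 and -0.14 to 0.26 for Meg3. The causes were not tested. No member was called by genotype in any of these fits. Without raw counts, the precision that depth allows cannot be stated.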
